A study of Mus musculus with 24 samples.

Results

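Neural progenitor cells (NPC) of the Q111 line were compared with NPC of the Q92 line, 2 Huntington disease knock-in lines of mouse embryonic stem cells (mESC) that each carry an expanded CAG repeat in 1 of their Htt alleles. The comparison used 4 of the 24 samples of the series: 2 Q111 and 2 Q92 NPC libraries, chosen by the genotype and cell type in their labels. The repeat of the Q92 line, so called in its sample titles, is given as 89 in the growth protocol. The other 8 NPC libraries came from wild-type (WT), Htt knockout (KO), Q20 and Q50 lines, 2 libraries each. They entered the fit for the estimate of the spread and counted in the filter that chose the genes tested. All lines had been grown as mESC with leukaemia inhibitory factor on irradiated CF-1 mouse embryonic fibroblast feeders. NPC were derived by 7 days in N2B27 medium followed by FGF and EGF on laminin. Each genotype was 1 line, so a difference between Q111 and Q92 cannot be told apart from other differences between those 2 lines, and p-values measure the spread between libraries of a line.

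Huntingtin is a large scaffold protein that takes part in vesicle transport, autophagy and mitotic spindle orientation, and expansion of the glutamine tract encoded by its CAG repeat causes Huntington disease. Neural progenitors divide in FGF and EGF and can give rise to neurons, astrocytes and oligodendrocytes. Their position along the head-to-tail axis is reflected in the transcription factors they express: OTX factors mark forebrain and midbrain, and HOX factors mark hindbrain and spinal cord. Both lines compared here carry a repeat in the expanded range, and the question their comparison addresses is how NPC of the longest repeat in the series differ from those of the next longest.

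The repeat lies in exon 1 of 67 of Htt. In the reference genome the tract holds 7 glutamine codons, 6 CAG and 1 CAA, beginning at codon 18. It spans bases 34761958 to 34761978 of chromosome 5 (GRCm38, plus strand), within the coding part of the exon. The stretch chr5:34761910-34762038 is shown because it is the site at which both lines differ from wild type, with the glutamine codons in capitals. The expanded alleles themselves were not sequenced here.
Htt exon 1: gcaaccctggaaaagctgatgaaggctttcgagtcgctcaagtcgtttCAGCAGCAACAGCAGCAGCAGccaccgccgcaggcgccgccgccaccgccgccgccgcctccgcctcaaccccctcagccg

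The promoters of 4 genes with large differences are shown from RefSeq (GRCm38.p6), from 250 bases before to 50 after the start site, with each CpG in capitals. Of the 24 genes with the largest rises and falls, 15 had a promoter in this table. Hoxa9 and Hoxa5 stand for the Hox genes, which were low in Q111, Pdgfra for the glial genes and Kdm5d for the largest rise.
Hoxa9, chr6:52227321-52227620, minus strand: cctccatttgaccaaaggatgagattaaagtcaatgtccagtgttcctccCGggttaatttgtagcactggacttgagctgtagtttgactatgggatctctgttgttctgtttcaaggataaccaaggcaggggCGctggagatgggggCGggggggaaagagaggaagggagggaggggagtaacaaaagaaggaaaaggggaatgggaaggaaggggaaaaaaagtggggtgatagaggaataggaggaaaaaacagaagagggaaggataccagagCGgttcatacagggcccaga
Hoxa5, chr6:52204538-52204837, minus strand: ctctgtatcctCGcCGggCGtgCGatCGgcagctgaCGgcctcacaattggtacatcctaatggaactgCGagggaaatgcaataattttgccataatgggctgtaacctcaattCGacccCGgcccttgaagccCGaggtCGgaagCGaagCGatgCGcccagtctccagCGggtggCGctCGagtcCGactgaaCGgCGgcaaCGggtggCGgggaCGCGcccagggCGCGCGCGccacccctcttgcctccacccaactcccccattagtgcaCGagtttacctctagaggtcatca
Pdgfra, chr5:75152001-75152300, plus strand: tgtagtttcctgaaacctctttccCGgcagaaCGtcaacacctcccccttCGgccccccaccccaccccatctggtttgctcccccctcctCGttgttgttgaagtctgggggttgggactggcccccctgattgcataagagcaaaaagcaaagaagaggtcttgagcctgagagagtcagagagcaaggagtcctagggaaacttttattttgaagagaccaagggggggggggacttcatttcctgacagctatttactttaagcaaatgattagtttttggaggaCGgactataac
Kdm5d, chrY:897538-897837, plus strand: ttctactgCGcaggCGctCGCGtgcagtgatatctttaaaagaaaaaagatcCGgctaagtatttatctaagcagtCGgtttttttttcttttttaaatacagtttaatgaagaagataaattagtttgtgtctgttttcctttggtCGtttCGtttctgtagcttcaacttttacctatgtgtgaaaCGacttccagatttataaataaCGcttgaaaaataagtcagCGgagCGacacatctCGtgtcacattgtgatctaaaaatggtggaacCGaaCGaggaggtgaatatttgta

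These windows are unlike each other in CpG content. Hoxa5 held 29 CpG, a number reached by 12.7% of 27025 promoters, and Kdm5d held 15, reached by 35.2%. Pdgfra held 5, reached by 61.7%, and Hoxa9 held 4, reached by 68.1%. Only the first listed start site of each gene was used. For Hoxa9 it lies inside the annotated gene (chr6:52223100-52231089), so its count is that of an internal start site. The motif TATAAA, searched on both strands and unable to overlap a CpG, occurred in the Kdm5d window and not in the other windows. It occurred in 3827 of all promoters (14.2%).

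Htt itself, the gene that carries the repeat, was measured at 137 and 150 in the 2 Q111 libraries and at 184 and 168 in the 2 Q92 libraries, in CPM, read counts relative to library size as scaled by the authors (scaled CPM). The Q111 libraries lay below the Q92 libraries without overlap. The difference, here and throughout Q111 minus Q92 on the scale log2(scaled CPM + 1), was -0.29 (SE 0.14), and it did not pass the test (limma adjusted p = 0.205). Without the WT and KO libraries it passed, with limma adjusted p = 0.034, and over the other alternatives the adjusted p was 0.0758 to 0.57. The WT libraries gave 137 and 177 and the KO libraries 100 and 94.9, so the KO line still had reads assigned to Htt. These counts do not separate the expanded from the normal allele.

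The 2 lines differed at many genes. Of 13206 genes tested, 1877 (14.2%) passed limma's test at a Benjamini-Hochberg adjusted p below 0.05, and 3809 had an unadjusted p below 0.05. Of the called genes, 1030 (7.8% of those tested) were higher in Q111 and 847 (6.41%) were lower. The difference was at least 2-fold for 1076 of them, 643 higher and 433 lower, and at least 8-fold for 98. The median over all tested genes was 0.002, on values whose scaling centres the bulk of genes near 0. The libraries of the lines did not overlap for 70.6% of tested genes, and the 1877 called genes were all among them. edgeR's quasi-likelihood test on recovered reads called 1868 genes, 1733 of them shared.

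The count rested on both replicates of both lines and on the estimate of the spread. It was 812 without Q111 replicate 1, 800 without Q111 replicate 2, 847 without Q92 replicate 1 and 839 without Q92 replicate 2. The WT and KO replicates were further apart than those of the lines compared: the SD of the log2 difference between replicates over genes was 0.869 in WT and 0.689 in KO, against 0.486 in Q111 and 0.525 in Q92. Without the WT and KO libraries, 4502 genes were called, including 1875 of the 1877.

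The Q111 libraries were somewhat deeper than the Q92 libraries. They held 76985911 and 73958639 reads over genes against 63644331 and 67570788, within the NPC range of 48525333 to 118038952. Over genes, the root mean square log2 difference between a Q111 and a Q92 library was 0.855 to 0.879, against 0.486 and 0.525 between the replicates of each line.

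**Figure D1:**
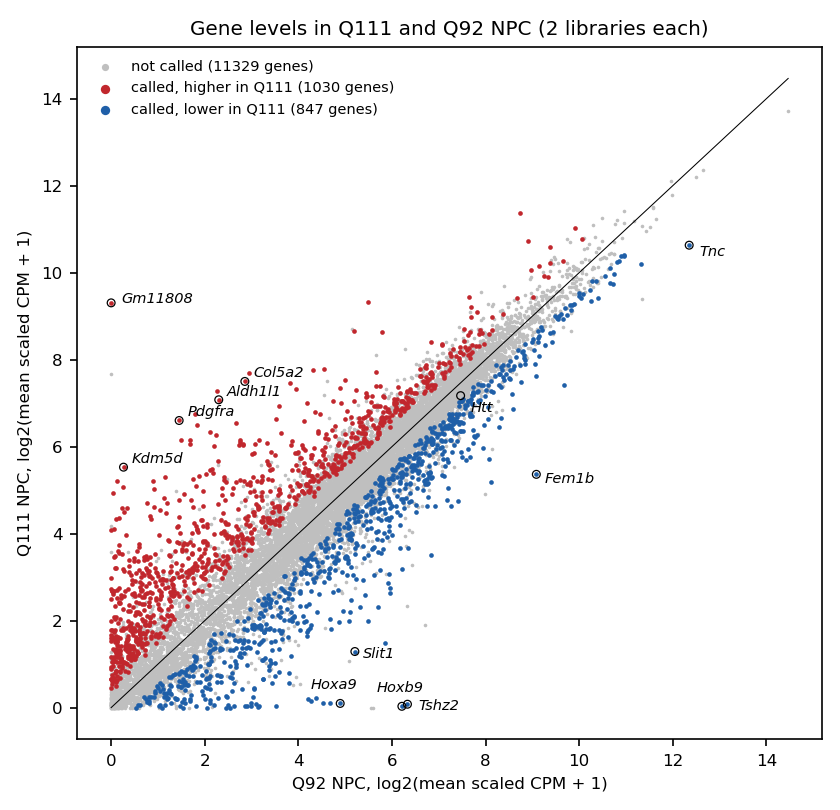
Each point is a gene tested in NPC, with log2(mean scaled CPM + 1) of the 2 Q92 libraries on the x axis and of the 2 Q111 libraries on the y axis; red points were called higher in Q111 (1030), blue points lower (847) and grey points were not called. Kdm5d and Pdgfra lie far above the line of equality and Tshz2, Hoxb9 and Hoxa9 at the bottom edge, while Htt lies just below the line.

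The largest rise among genes with several exons was Kdm5d, a histone H3K4 demethylase gene of the Y chromosome (chrY:897788-956786). It had 43.6 and 46.8 scaled CPM in Q111 against 0.215 and 0.188 in Q92, a difference of 5.26 (SE 0.14, limma adjusted p = 1.04e-06). The other 8 NPC libraries had at most 0.963, so the Q111 libraries stood alone. The other tested Y genes were expressed in both lines. Ddx3y, an RNA helicase gene, had 56.9 and 72.1 against 87.6 and 84.1. Uty had 40.5 and 44.7 against 53.4 and 53.6, and Eif2s3y, a translation factor subunit gene, had 83.8 and 83.4 against 57.8 and 61.1, none of the 3 called. Erdr1, chosen after its values were seen, had 70.5 and 47.8 against 125 and 151 and was called lower (-1.23, SE 0.32, limma adjusted p = 0.036), a call lost in all 4 fits without 1 library (0.0641 to 0.209).

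Pdgfra, the receptor for platelet-derived growth factor that marks oligodendrocyte precursors, showed the next largest rise. Its levels were 95.6 and 96.7 in Q111 and 1.27 and 2.2 in Q92 (5.17, SE 0.47, limma adjusted p = 0.000297). Here the Q92 libraries stood apart, since the remaining NPC lines ranged from 60.6 to 264. Aldh1l1, a folate enzyme used as an astrocyte marker, had 137 and 131 against 3.75 and 4.1, and Car2, carbonic anhydrase, had 177 and 235 against 6.56 and 6.85, a difference of 4.73 (SE 0.25, limma adjusted p = 1.9e-05). Car2 ranged from 42.2 to 404 in the other lines, so Q92 was again the low line.

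The remaining large rises were of varied function. Ifi203, an interferon-inducible gene, had 33.4 and 38.3 against 0.149 and 0.0313, and Ramp1, which escorts the CGRP receptor to the membrane, had 155 and 151 against 3.58 and 3.97. Col4a6, a basement membrane collagen, had 105 and 109 against 2.41 and 2.53. Heph, a copper-dependent ferroxidase, had 32.1 and 33.4 against 0.198 and 0.172. Each pair of lines was separated by more than the spread of either. Cdh19, a cadherin, had 30 and 29.4 against 0.0495 and 0, Ctsc, a lysosomal protease, 94.5 and 85.6 against 2.13 and 3.03, and Epb41l3, which links the membrane to the cytoskeleton, 71.4 and 69.5 against 1.54 and 2.1. Col5a2, a fibrillar collagen, had 179 and 181 against 5.88 and 6.61 (4.65, SE 0.21, limma adjusted p = 1.08e-05). These 12 largest rises kept their call when any 1 of the 4 libraries was left out.

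Transcription factors of body patterning led the falls. Tshz2, a zinc finger factor, had 0.0406 and 0.0709 scaled CPM in Q111 against 77.8 and 81.3 in Q92, a difference of -6.25 (SE 0.23, limma adjusted p = 2.67e-06). Hoxb9 had 0 and 0.0425 against 73.9 and 72.5 (-6.18, SE 0.66, limma adjusted p = 0.000613). Nkx6-1, a homeodomain factor of the ventral neural tube, had 0.149 and 0 against 23.6 and 25.6 (-4.58, SE 0.27, limma adjusted p = 3.26e-05). These genes were close to undetected in Q111, at most 0.149 scaled CPM. In Q50, Hoxb9 had 0.0387 and 0 and Nkx6-1 had 0 in both libraries, whereas Tshz2 had 8.88 and 8.7. WT was low too, with 0.228 and 0.54 for Hoxb9 and 0.193 and 0.0859 for Nkx6-1. KO and Q20 had 2.71 to 21.1 for Hoxb9 and 0.821 to 4.09 for Nkx6-1. Q92 was thus the high line for both genes. Tshz2 had 17.7 to 67.5 in WT, KO and Q20.

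Other large falls concerned the cell cycle, guidance and signalling. Cdk6, a cyclin-dependent kinase of the G1 phase, had 0.785 and 2.82 against 65.5 and 48.7 (-4.46, SE 0.63, limma adjusted p = 0.00251). Slit1, a secreted axon repellent, had 1.22 and 1.67 against 30.3 and 41.6, and Htr3a, a serotonin-gated channel, had 3.13 and 2.88 against 41.2 and 47.2. The libraries of the lines were far apart in each case. Igsf21, an immunoglobulin superfamily member, had 0.135 and 0.0709 against 17 and 19.9.

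Fem1b, a substrate receptor of a ubiquitin ligase, differed in kind. It had 36.1 and 44.3 in Q111 against 542 and 543 in Q92 (-3.73, SE 0.92, limma adjusted p = 0.0305), but the 2 WT replicates gave 33.1 and 428. Its call was lost without any 1 of the 4 libraries, with limma adjusted p from 0.119 to 0.146. Of the 128 called genes named by rule, 76 overlapped another annotated gene on the same or the other strand, among them Pdgfra, Col4a6, Tshz2, Hoxa9 and Fem1b. Whether the authors counted by strand is not given in the sources used here, so reads of such genes and their partners cannot be told apart.

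HOX genes were lower in Q111 throughout the list. Of 39 Hox genes listed, 25 were in the table and 21 passed the filter on low values. All 21 lay below 0, with a list median of -2.58 against 0.002 over all tested genes. Of the 21, 18 were called lower and none higher (85.7%, against 14.2% of all tested genes). Summed over the list, Q111 had 2.37 and 2.18 scaled CPM and Q92 231 and 235. The sums were 83.4 and 74.8 in WT, 145 and 161 in KO, 71 and 70.9 in Q20 and 19.4 and 23.7 in Q50. Q111 was thus the lowest and Q92 the highest of the 6 lines, and each stood beyond all 4 others.

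All parts of the clusters took part. Of the Hoxa cluster 8 of 9 tested members were called lower, of Hoxb 7 of 7, of Hoxc 2 of 2 and of Hoxd 1 of 3. Hoxa9, a gene of the trunk with an internal start site printed above, had 0.0677 and 0.0709 against 30.6 and 26.9 (-4.80, SE 0.16, limma adjusted p = 2.52e-06). Hoxa5 had 0.176 and 0.156 against 21.4 and 18.2 (-4.15, SE 0.66, limma adjusted p = 0.00439). Hoxb3, a hindbrain gene, had 0.0542 and 0.0851 against 19 and 25, and Hoxb2 had 0.162 and 0.128 against 16.6 and 18.2.

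Members from both ends of the clusters were near 0 in Q111, and Hoxa2 was the highest there. Some were near 0 in other lines too. Hoxa9 had 0.058 and 0.0353 in Q50 and 0.137 and 0.236 in Q20. Hoxb9 had 0.0387 and 0 in Q50 and 0.228 and 0.54 in WT. Hoxa5 was not, with 5.12 and 6.31 in Q50 and 6.21 and 6.83 in Q20. Hoxa2, chosen after its values were seen, had 1.11 and 0.992 against 9.76 and 11. Hoxb7 and Hoxc6, likewise chosen after the fact, had no read in either Q111 library. Against a floor of 3 reads per library, Hoxb7 was at least 116-fold lower and Hoxc6 at least 109-fold lower in Q111. With the 3 members that had no read set at their bound, the list median was -2.96. Hoxd8 and Hoxd9 were not called. The number called lower was 15 to 17 when 1 library was left out and 18 with edgeR.

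Markers of forebrain and midbrain went the other way. Of 30 genes listed 16 passed the filter, of which 14 lay above 0, with a median of 0.62. Of the 16, 7 were called higher and none lower (43.8%, against 14.2% of all tested genes). Otx1, a homeodomain factor of the anterior brain, had 9.04 and 7.39 against 0.0991 and 0.0313 (3.11, SE 0.15, limma adjusted p = 1.29e-05). Its relative Otx2 had 4.95 and 8.72 in Q111 and no read in either Q92 library, at least 142-fold higher (limma adjusted p = 0.000347). Q20 and Q50 also expressed Otx2, at 12.1 to 18.5, whereas WT and KO were below 1.

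The other called members were more moderate. Irx1, a factor of midbrain and hindbrain, had 12.5 and 7.75 against 0.627 and 0.704, and its call was lost in 3 of the 4 fits without 1 library (limma adjusted p 0.0309 to 0.0677). En2, Irx2, Barhl2 and Fezf1, chosen after their values were seen, were also called higher. En2, a factor of the midbrain-hindbrain boundary, had 19 and 21.7 against 6.72 and 6.41. The summed level of the list was 105 and 101 in Q111 and 41.3 and 50.1 in Q92, and 5 or 6 members were called when 1 library was left out. The forebrain and midbrain sums were 132 and 97.7 in WT, 88.9 and 72.1 in KO, 74.4 and 75.3 in Q20 and 93.9 and 87.7 in Q50. Q92 was thus below all other lines, and Q111 lay within their range. Of 10 spinal cord patterning genes only Nkx6-1 was called.

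**Figure D2:**
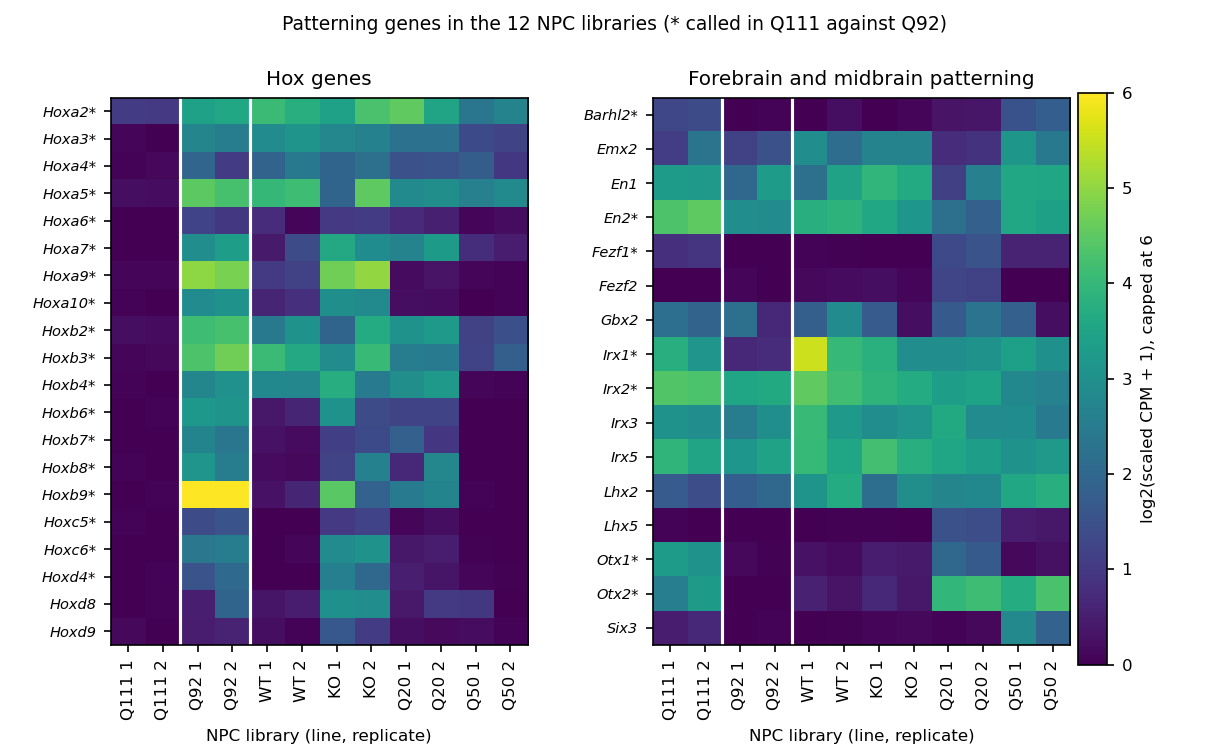
The heat maps show log2(scaled CPM + 1), capped at 6, of tested Hox genes (left) and forebrain and midbrain genes (right) in the 12 NPC libraries, with the Q111 and Q92 libraries set apart by white lines and genes called in Q111 against Q92 marked by an asterisk. The 2 Q111 columns are dark throughout the Hox panel, while Otx1 and Otx2 are bright in Q111 and dark in Q92.

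Oligodendrocyte genes were higher in Q111. Of 18 genes listed 16 passed the filter, of which 13 lay above 0, with a median of 1.38. Of the 16, 8 were called higher and none lower (50%, against 14.2% of all tested genes). Next to Pdgfra, Mbp, a myelin protein gene, had 20.7 and 25.1 against 0.198 and 0.156 (4.34, SE 0.25, limma adjusted p = 2.85e-05). Enpp6, an enzyme of newly forming oligodendrocytes, had 9.72 and 10.5 against 0.0495 and 0.0469 (3.40, SE 0.17, limma adjusted p = 1.32e-05). Q20 was higher still, with 47.6 and 36.5 for Mbp and 35.6 and 28.9 for Enpp6. The WT, KO and Q50 libraries had at most 3.26 for Mbp and 0.601 for Enpp6. In these bulk samples, fewer cells of a type and less RNA per cell cannot be told apart.

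Members were not all alike. Ugt8a, a myelin lipid enzyme, Cldn11, Cspg4 and Myrf, all chosen after their values were seen, were called higher by smaller amounts, Ugt8a at 29.8 and 42.7 against 6.49 and 5.85. The lineage factors did not pass: Olig2 had 217 and 644 against 150 and 193, and Sox10 had 4.24 and 3.02 against 1.19 and 1.49. Gpr17, a receptor of precursors becoming committed, had 53.7 and 7.37 against 1.39 and 1.84 and was not called. Summed over the list, WT had 1238 and 641, KO 843 and 595, Q20 1368 and 1341 and Q50 507 and 513. Q92 lay below all of these sums, and Q111 lay within their range. The list sums were 726 and 1120 in Q111 and 368 and 485 in Q92, and 5 members were called in each fit without 1 library.

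Astrocyte markers were split. Of 18 tested, 3 were called higher and 2 lower (27.8%, against 14.2% of all tested genes). The median was 0.33, with 10 above 0. Aldh1l1 rose as given above (4.78, SE 0.37, limma adjusted p = 0.000127) and Clu, a secreted chaperone, had 19.8 and 15.9 against 1.8 and 3.05 (2.48, SE 0.25, limma adjusted p = 0.000525). Aldoc, a glycolytic enzyme of astrocytes, fell from 324 and 322 in Q92 to 102 and 97.4 in Q111 (-1.69, SE 0.17, limma adjusted p = 0.000418).

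The defining filament gene was scarce in both lines. Gfap had 2.82 and 2.44 against 0.182 and 0.0938 and was not called. Gja1, a gap junction gene, had 3.63 and 1.84 in Q111 but 1.95 and 205 in the 2 Q92 libraries, so the Q92 replicates disagreed. Sparcl1 was called higher and Fgfr3 lower, and both calls were lost in all 4 fits without 1 library (limma adjusted p 0.138 to 0.2 and 0.125 to 0.183). The sums were 1221 and 1287 in Q111 and 1134 and 1438 in Q92, which overlap. With 1 library left out, 2 members were called higher and 1 lower.

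Neuronal genes were more often higher than lower in Q111. Of 24 genes listed 19 passed the filter, with a median of 0.46. Of the 19, 6 were called higher and 2 lower (42.1%, against 14.2% of all tested genes). Syt1, the calcium sensor of synaptic vesicles, had 17.7 and 16.2 against 1.75 and 1.63 (2.74, SE 0.33, limma adjusted p = 0.00119). Stmn2, a microtubule regulator of growing axons, had 5.51 and 5.24 against 0.0165 and 0 (2.66, SE 0.16, limma adjusted p = 3.53e-05). Q20 had 103 and 128 for Stmn2, and the WT, KO and Q50 libraries at most 0.356. Elavl4, an RNA-binding protein of neurons, fell, with 8.72 and 5.73 against 45.8 and 50.1 (-2.60, SE 0.27, limma adjusted p = 0.000595).

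Genes with broad neuronal use did not pass the test. Tubb3 had 11.2 and 7.95 against 6.64 and 7.93 and Map2 732 and 714 against 1030 and 897. Nefl, a neurofilament called higher, lost its call with edgeR (adjusted p = 0.078), as did Neurod1, called lower (adjusted p = 0.15). The sums over the list overlapped, at 1167 and 1146 in Q111 and 1243 and 1107 in Q92. With 1 library left out, 3 members were called higher and 1 or 2 lower.

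Progenitor markers were present in both lines. Of 22 tested, 4 were called higher and none lower (18.2%, against 14.2% of all tested genes), with a median of 0.30. Nes, an intermediate filament of progenitors, had 814 and 803 against 1270 and 1220, and Vim 2170 and 2160 against 2420 and 2810, neither called. Nr2e1, a nuclear receptor of neural stem cells, had 4.32 and 4.96 in Q111 and no read in Q92, at least 96.2-fold higher (limma adjusted p = 1.62e-05). Prom1, a membrane glycoprotein, was higher by 0.96 (SE 0.14, limma adjusted p = 0.00284), with 47.6 and 47.1 against 24.9 and 23. Cd44 was called too, but not in any fit without 1 library (limma adjusted p 0.0603 to 0.0856), and each such fit called 2 members. The sums were 7059 and 7784 in Q111 and 7537 and 7800 in Q92.

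Markers of cells besides neural cells gave mixed levels. Pou5f1, a pluripotency factor, had at most 0.244 in any of the 4 libraries. Of 20 fibroblast and mesenchyme genes tested, 6 were called higher and 5 lower (55%, against 14.2% of all tested genes). The list summed to 860 and 878 in Q111 and 527 and 568 in Q92. Of its defining members, Col3a1 was called lower in Q111 and Col1a2 is not given here. Col1a1, Dcn, Lum, Pdgfrb and Thy1 were below 0.7 in the 4 libraries. The called ones were mainly matrix genes, such as Col6a1 with 38.7 and 36 against 1.96 and 2.75 (3.52, SE 0.22, limma adjusted p = 4.08e-05) and Col5a1 with 6.02 and 7.27 against 40.5 and 41.1 (-2.45, SE 0.25, limma adjusted p = 0.000471). Fits without 1 library called 4 members higher and 2 or 3 lower. Of 11 neural crest genes tested 3 were called higher and none lower, 1 of them in each fit without 1 library, and the list summed to 503 and 491 in Q111 and 155 and 168 in Q92. The neural crest calls made up 27.3% of the tested members, against 14.2% of all tested genes. The part of cells besides neural cells in the other results was not tested.

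**Figure D3:**
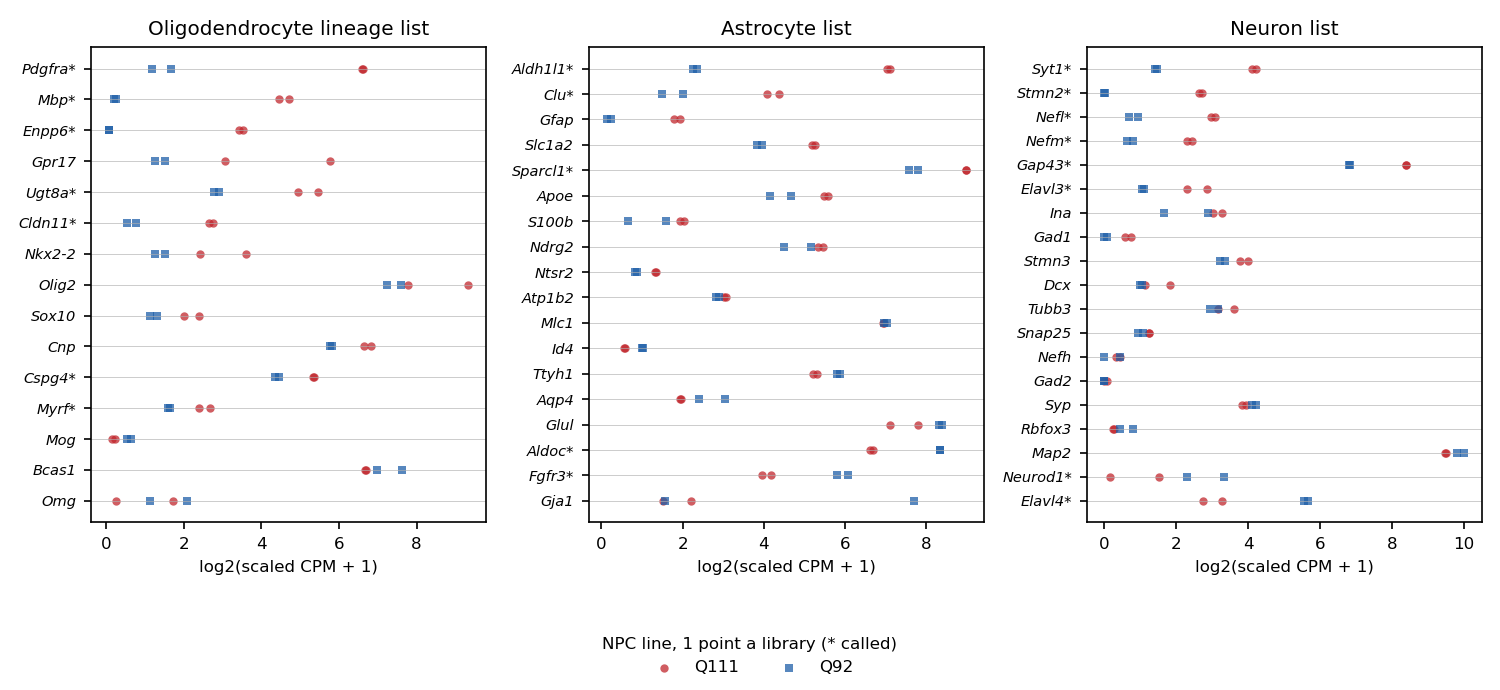
Each point is the level of a gene in 1 NPC library, as log2(scaled CPM + 1), for genes of the oligodendrocyte, astrocyte and neuron lists, with red circles for Q111, blue squares for Q92 and an asterisk for genes called. Red lies far to the right of blue for Pdgfra, Mbp and Enpp6, and the astrocyte panel holds genes on both sides.

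Receptors for glutamate and GABA changed in both directions. Of 26 tested, 7 were called higher and 3 lower (38.5%, against 14.2% of all tested genes), with a median near 0 (0.03). Grin3a, an NMDA receptor subunit, had 70.3 and 70.2 against 1.75 and 2.67 (4.49, SE 0.21, limma adjusted p = 1.08e-05). Gria4, an AMPA receptor subunit, had 77.9 and 74.3 against 4.21 and 3.3 (4.03, SE 0.14, limma adjusted p = 2.52e-06), and the other NPC lines had 38.2 to 143. Q92 was thus the low line for Gria4.

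Inhibitory receptors were found on both sides. Gabra2, a subunit of the GABA-A receptor, had 41.7 and 36.3 against 2.51 and 2.88 (3.44, SE 0.22, limma adjusted p = 5.51e-05). Gabbr2, a GABA-B receptor subunit, had 1.58 and 1.42 against 11.1 and 8.58 (-2.10, SE 0.34, limma adjusted p = 0.00509). Grik3, a kainate receptor subunit, fell to 3.66 and 3.46 from 38.3 and 29 (-2.91, SE 0.24, limma adjusted p = 0.000161). In each fit without 1 library, 6 members were called higher and 2 lower.

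Axon guidance genes changed without a shared direction. Of 43 tested, 7 were called higher and 9 lower (37.2%, against 14.2% of all tested genes), with a median of -0.17. Besides Slit1, Unc5b, a netrin receptor, had 3.11 and 2.88 against 18.9 and 14.9, and Plxna4, a semaphorin receptor, had 6.71 and 7.85 against 31.9 and 31.8. Efnb2, an ephrin ligand, had 20.9 and 43.6 against 4.77 and 3.63 (2.60, SE 0.40, limma adjusted p = 0.00353). Sema3d, a secreted semaphorin, had 16.5 and 17.4 against 3.32 and 2.42, and Nrp1, a coreceptor of semaphorins and VEGF, 49.5 and 55 against 14.9 and 16.1. With 1 library left out, 3 to 6 members were called higher and 3 or 4 lower.

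Matrix genes also split, with collagen IV among the rises. Of 38 collagens, laminins, tenascins and integrins tested, 10 were called higher and 8 lower (47.4%, against 14.2% of all tested genes). The median was 0.17. Lama4, a laminin of vessels, had 41.3 in both Q111 libraries against 3.19 and 3.86 (3.23, SE 0.28, limma adjusted p = 0.000212), and Tnr, a tenascin made by oligodendrocytes, 44.4 and 43.6 against 3.67 and 3.25. Lama1, the early embryonic laminin chain, had 2.4 and 2.45 against 12.1 and 9.79 (-1.80, SE 0.25, limma adjusted p = 0.00225).

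Col4a6 and its neighbour on the X chromosome, Col4a5, moved together: Col4a5, chosen after its values were seen, had 158 and 166 against 26.7 and 31 (2.45, SE 0.26, limma adjusted p = 0.000672). Tnc, a tenascin of neural stem cells also chosen after the fact, was among the highest genes, with 1520 and 1650 against 5210 and 5240 (-1.72, SE 0.32, limma adjusted p = 0.00957). Itga9, an integrin that binds tenascin, had 34.5 and 36.9 against 251 and 306, and its call was lost in 3 of the 4 fits without 1 library (limma adjusted p 0.0491 to 0.0681). Such fits called 7 to 9 members higher and 2 to 5 lower.

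Growth factor pathways changed in both directions. For EGF and FGF signalling, on which these cultures depend, 3 of 35 were called higher and 4 lower (20%, against 14.2% of all tested genes). Egfr, the EGF receptor, had 954 and 963 against 528 and 480 and was not called (limma adjusted p = 0.158). In the Wnt list, 2 of 24 were called higher and 4 lower (25%), among them Lef1, a nuclear effector, with 4.45 and 4.1 against 0.165 and 0.0938 (2.22, SE 0.19, limma adjusted p = 0.000212), and Sfrp1, a secreted inhibitor, with 2.88 and 3.35 against 25 and 24.1 (-2.64, SE 0.19, limma adjusted p = 0.000109). In the BMP and TGF-beta list, 1 of 27 was called higher and 2 lower (11.1%). The higher one was Chrdl1, a BMP antagonist with 63.4 and 52.7 against 10.6 and 8.69. Hedgehog and Notch lists had 1 called member in each direction, of 12 and 18 tested (16.7% and 11.1%). Fits without 1 library called 1 or 2 members higher and 0 to 2 lower in the EGF and FGF list, and 1 or 2 higher and 2 lower in the Wnt list. In the BMP and TGF-beta list they called 1 or 2 higher and none lower, so both lower calls were lost.

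Cytosolic ribosomal protein genes were lower in Q111 than in Q92 by a small amount. Of 60 tested, 22 were called lower and none higher (36.7%, against 14.2% of all tested genes), and 6 lay above 0. The median was -0.47, which ranged from -0.544 to -0.4225 over the alternatives. Summed over the list, Q111 had 47950 and 47140 scaled CPM, Q92 60660 and 66380 and WT 48200 and 52060. KO had 60280 and 50960, Q20 51950 and 50870 and Q50 33190 and 39420. Q92 was thus the highest line, and Q50 lay below Q111. Rpl28, of the large subunit, had 397 and 390 against 626 and 703 (-0.75, SE 0.14, limma adjusted p = 0.00987), and Rps28, of the small subunit, 457 and 521 against 798 and 809. The count was 0 to 2 when 1 library was left out and 22 with edgeR, and the Rpl28 and Rps28 calls were each lost in 3 of the 4 fits, with limma adjusted p of 0.0406 to 0.0853 and 0.0386 to 0.0901.

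Cell cycle lists lay above 0 with almost no calls. All 31 mitosis genes had a difference above 0, with a median of 0.42, and none was called. Of 42 DNA replication genes 37 lay above 0, with a median of 0.50, and 1 was called in each direction, none of them in a fit without 1 library. Mki67, a proliferation marker, had 1530 and 1690 against 1290 and 1070. Without the WT and KO libraries, 18 mitosis genes and 29 DNA replication genes were called higher, and the mitosis sums were 3305 and 8840 in the 2 WT libraries and 3536 and 9347 in the 2 KO libraries. Those replicates differed from each other by more than Q111 did from Q92, at 10020 and 10240 against 7742 and 7149.

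Interferon response genes were higher for 23 of 25 tested, with a median of 0.54. Of the 25, 5 were called higher and none lower (20%, against 14.2% of all tested genes). Psmb8, an immunoproteasome subunit, had 1.54 and 1.45 against 0.149 and 0.125 (1.13, SE 0.11, limma adjusted p = 0.000377), and Ifi35 had 1.68 and 1.67 against 0.215 and 0.25. Of 22 p53 target genes, 3 were called lower and none higher (13.6%, near the 14.2% of all tested genes), led by Trp53inp1, which links p53 to autophagy, with 84.3 and 80 against 209 and 212 (-1.35, SE 0.13, limma adjusted p = 0.000351). Eda2r, a death receptor family member, had 81.9 and 79.7 against 183 and 183. With 1 library left out, 2 or 3 interferon genes were called higher and 2 p53 targets lower, and without Q111 replicate 1 a p53 target was called higher.

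Splicing regulators were called about as often as genes in general. Of 54, 4 were called higher and 4 lower (14.8%, against 14.2% of all tested genes), with a median of 0.03. Rbm20, a splicing factor known from heart muscle, had 3.93 and 4.01 against 37.9 and 39.7 (SE of the difference 0.19, limma adjusted p = 3.99e-05), and Rbfox2, which regulates neural exons, 53.6 and 50 against 170 and 116 (-1.42, SE 0.18, limma adjusted p = 0.0013). Celf2, a CUG-binding protein, had 114 and 128 against 58.4 and 44.1 (1.23, SE 0.17, limma adjusted p = 0.00219). With 1 library left out, 1 or 2 members were called higher and 2 or 3 lower.

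Lists tied to huntingtin and the repeat had few called members. Whether their shares differ from the 14.2% of all tested genes was not tested. Of 38 genes of huntingtin interaction partners, 1 was called higher and 2 lower (7.89%), with 0 or 1 in each direction in fits without 1 library. Of 20 genes of mismatch repair and CAG instability, 1 was called in each direction (10%). Without the WT and KO libraries, 4502 of the 13206 genes were called. That fit called 4 interaction partners higher and 8 lower, and 4 mismatch repair and CAG instability genes higher and 3 lower. Neil1, a DNA glycosylase, had 6.85 and 5.51 against 12.3 and 14.8, and Neil3, its relative, 54.7 and 59.3 against 14.4 and 15.1. Both calls were lost in some fits without 1 library, Neil1 in 2 (limma adjusted p 0.0406 to 0.0953) and Neil3 in 4 (0.124 to 0.144).

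Lists of energy and lipid metabolism and protein quality control were close to the background of 14.2% or below it in their share of calls. Of 28 glycolysis and hypoxia genes, 3 were called higher and 2 lower (17.9%), with a median of -0.34 and 20 below 0. Of 28 ER stress and ATF4 genes, 1 was called in each direction (7.14%), with a median of -0.35 and 21 below 0. No member was called among 40 oxidative phosphorylation genes (median 0.07) and 26 cholesterol synthesis genes (median 0.03), and 1 of 34 autophagy and lysosome genes was called. Of 32 chaperone genes 3 were called higher, among them Dnajb1, a heat shock cochaperone, with 131 and 132 against 75.6 and 74.2. Igf2r, an imprinted gene for the receptor that clears IGF2, had 23.9 in both Q111 libraries against 137 and 170 (-2.62, SE 0.29, limma adjusted p = 0.000752), 1 of 2 imprinted genes called lower of 19.

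Genes of chromosomes 8 and 11 were, as a body, higher in Q111 than in Q92. The median difference was 0.37 over 708 tested genes of chromosome 8 and 0.41 over 1069 of chromosome 11, while the medians of the other autosomes and the X chromosome lay between -0.116 and 0.027. On chromosome 8, 79.9% of genes lay above 0, 120 were called higher and 19 lower (19.6%, against 14.2% of all tested genes). On chromosome 11, 77.4% lay above 0, 188 were called higher and 28 lower (20.2%). Of all tested genes 7.8% were called higher and 6.41% lower. The medians ranged over the alternatives from 0.338 to 0.444 and from 0.364 to 0.480. With 1 library left out, 40 to 45 genes of chromosome 8 and 61 to 76 of chromosome 11 were called higher.

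The shift ran the length of both chromosomes. Among genes with a mean of at least 5 scaled CPM, the medians of 20-Mb windows were 0.27 to 0.48 on chromosome 8 and 0.43 to 0.61 on chromosome 11. In terms of each library's deviation from the NPC libraries as a whole, the Q111 libraries stood at 0.411 and 0.374 on chromosome 11 and the other 10 libraries at -0.178 to 0.066. On chromosome 8 the Q111 libraries stood at 0.194 and 0.183 and the Q92 libraries at -0.137 and -0.144, with KO at 0.128 and 0.158. Q20 stood there at 0.011 and -0.024, Q50 at 0.043 and 0.102 and WT at -0.345 and -0.201. Q92 was thus low on chromosome 8 beside the lines other than WT, which was lower still. Among NPC lines Q111 alone was high on chromosome 11, but on chromosome 8 KO was high as well. In mESC the deviations on chromosome 11 were 0.161 and 0.35 in Q111 and 0.157 and 0.285 in Q20, which overlap. DNA copy number was not measured here.

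Outside these chromosomes 722 genes were called higher and 800 lower of 11429 (13.3%). Of these calls 47.4% were higher, against 54.9% over all chromosomes. Patterning and glial genes were called there too: 11 Hox genes were called lower of 14 elsewhere, 6 forebrain and midbrain genes higher of 13, and 7 oligodendrocyte genes higher of 13. The 7 Hoxb genes were lower in Q111 although they lie on chromosome 11. No ribosomal protein gene was called on chromosomes 8 or 11, and 22 of 52 were called lower elsewhere.

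**Figure D4:**
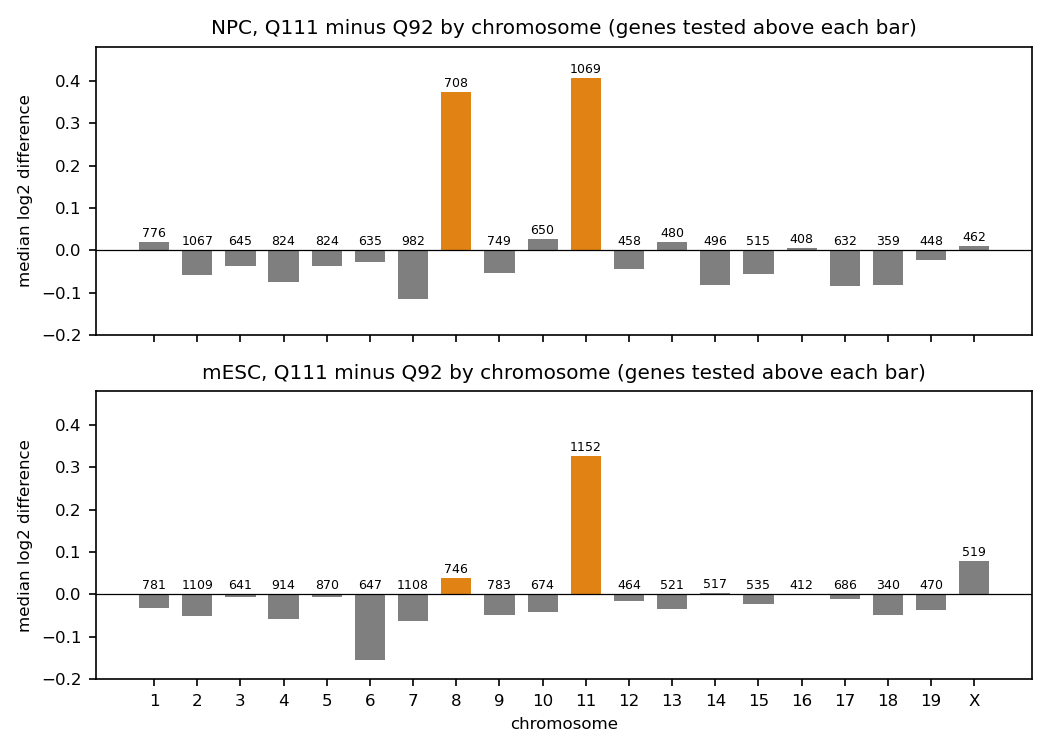
Bars give the median log2 difference, Q111 minus Q92, of the genes of each chromosome in NPC (top) and mESC (bottom), with the number of tested genes above each bar and chromosomes 8 and 11 in orange. Chromosomes 8 and 11 rise to 0.37 and 0.41 in NPC, and in mESC chromosome 11 stands at 0.326 and chromosome 8 at 0.039.

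Some genes were expressed in 1 line and all but silent in the other. With both libraries below 0.5 scaled CPM taken as off and both at 5 or more as on, 21 genes were off in Q111 and on in Q92, of which 19 were called, and 40 were off in Q92 and on in Q111, of which 36 were called. The genes off in Q111 included Hoxa9, Hoxa5, Hoxb9, Hoxb3, Hoxb2, Tshz2, Nkx6-1 and Igsf21, and those off in Q92 included Kdm5d, Heph, Mbp, Enpp6 and Otx1. Gm11808, a gene with 1 exon (chr4:3973092-3973595), had 660 and 606 in Q111 and no read in Q92, at least 13118-fold higher. All other lines had 516 to 864, and since single-exon copies can share reads with a parent gene, its value is uncertain.

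Set against the other 4 NPC lines, Q111 stood apart for some called genes, Q92 for others and neither for the rest. Of the 1877 called genes, Q111 alone lay beyond all libraries of those lines for 671 (35.7%), Q92 alone for 588 (31.3%) and both for 163 (8.68%). Neither did for 455 (24.2%). Over all tested genes the shares were 21.5%, 14.7%, 1.28% and 33.1%. Only genes whose Q111 and Q92 libraries did not overlap were counted. They were all 1877 called genes but 9328 of the 13206 tested, so the shares of called and tested genes are not directly comparable. For Kdm5d Q111 was the extreme line, and for Pdgfra, Car2 and Gria4 it was Q92.

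The same lines were compared as mESC, before differentiation, from 2 libraries each. There 11 of 13916 tested genes (0.079%) passed limma's test, all higher in Q111 and all on the X chromosome, with 784 at an unadjusted p below 0.05 and 10 called by edgeR. Most belong to the Xlr and Rhox families, X-linked genes expressed in germ cells. Rhox5, a homeobox gene, had 115 and 95.1 scaled CPM in Q111 against 20.2 and 19.8 in Q92 (2.33, SE 0.21, limma adjusted p = 0.00985), and Xlr5b had 40.7 and 30.5 against 2.5 and 2.39 (3.39, SE 0.31, limma adjusted p = 0.00985). Members of the Xlr family are near-identical copies, so reads may be split among them.

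The replicate numbers pair the mESC libraries, and with the replicate as a block 158 mESC genes were called, 107 higher and 51 lower. Of these, 100 were tested in NPC, 29 were called there too and 18 of the 29 had the same direction. Over all genes 14.2% were called in NPC and 55.9% had the same sign in both cell types. Of the 158, 38 were on the X chromosome, 15 on chromosome 11 and 11 on chromosome 6. Without the block the count depended on single libraries: 0 without Q111 replicate 1, 2 without Q92 replicate 1 and 1 without Q92 replicate 2.

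NPC and mESC differences were only weakly correlated. Over 12321 genes tested in both, r was 0.104 (Pearson) and rho 0.153 (Spearman), computed across genes, which are not independent replicates. Of 1635 genes called in NPC and tested in mESC, 1029 (62.9%) had the same sign in mESC, against 55.9% of all genes, and with chromosomes 8 and 11 left out 60% against 54.1%. Htt differed in mESC by -0.07 (SE 0.31, limma adjusted p = 1), with 99.3 and 91.5 against 106 and 94.4. Chromosome 11 was also shifted in mESC, with a median of 0.326 and 82.4% of genes above 0, whereas chromosome 8 had a median of 0.039.

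The difference between the cell types was itself tested. For 274 of 12321 genes (2.22%) the Q111 minus Q92 difference was not the same in NPC and mESC (limma adjusted p below 0.05 for the interaction), 160 (1.3%) higher and 114 (0.925%) lower in NPC, a count that the replicate block raised to 818. Gria4 had the smallest adjusted p among those higher in NPC, with a difference between the cell types of 4.08 (SE 0.28, limma adjusted p = 3.56e-06) and mESC means near 3 in both lines. Kdm5d had 3.90 (SE 0.34, limma adjusted p = 3.87e-05). Xlr3c had -4.05 (SE 0.39, limma adjusted p = 4.72e-05): it was higher in Q111 mESC, with 73.8 and 60.4 against 5.05 and 4.98, and near 0 in NPC, with 0.0542 and 0.0284 against 0.528 and 0.532. It was called in both cell types, in opposite directions, and no other gene was called in both without the replicate block. Its NPC call was lost in all 4 fits without 1 library (limma adjusted p 0.165 to 0.19).

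The count of 274 was lower without single libraries. Without Q111 NPC replicates 1 and 2 in turn it was 155 and 137, and without Q92 NPC replicates 1 and 2 it was 168 and 151. Without mESC replicate 1 of Q111 it was 182 and without mESC replicate 2 of Q92 it was 175.

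**Figure D5:**
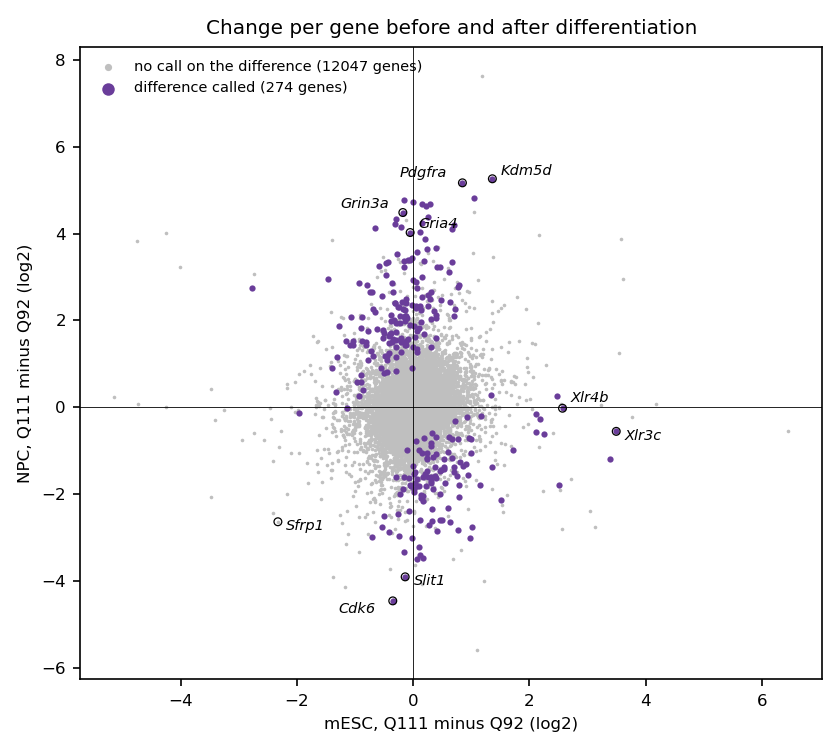
Each point is a gene tested in both cell types, with the log2 difference Q111 minus Q92 in mESC on the x axis and in NPC on the y axis; purple points (274) differ between the cell types by the test and grey points did not pass it. Pdgfra, Kdm5d and Gria4 lie high on the NPC axis and near 0 to 1.36 on the mESC axis, and Xlr3c lies to the right, high in mESC only.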

How the data were processed

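RNA was extracted with TRIzol, treated with DNase I and sequenced as 75-base paired ends, per the labels' protocols. CASAVA 1.8, STAR and the build GRCm38.p6 are named in the submitters' processing notes; the counter, its use of strand and any filter are not given in the sources used here. The authors deposited 1 table per cell type of normalized values under the name CPM. The deposited signal values were whole multiples of 1 read's worth in every column (100% of values within 0.01) and matched CPM scaled by TMM factors, so read counts could be recovered from the deposited table. The NPC table held 16024 genes, 99.95% of them in GENCODE M21.

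Genes with at least 1 scaled CPM in at least 2 of 12 libraries were kept, which left out 2818 NPC genes. Differences were tested with limma 3.58.1 (trend) in R 4.3.3 on log2(scaled CPM + 1) over the 12 libraries of a cell type, with a mean per line and a Benjamini-Hochberg threshold of 0.05. The cell-type difference was tested over 24 libraries. edgeR 4.0.16 and DESeq2 1.42.0 were run on recovered reads as alternatives, and scripts were tested on simulated data. An exact test of 2 libraries against 2 cannot go below 0.333. A fold against a line with no read used a floor of 3 reads per library, which covers counting error only. At these depths 60.8% of genes with at least 100 reads in Q111 and 66.9% in Q92 differed between replicates by more than counting noise.

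Genes were named by rule: Htt, the 12 largest rises and falls of those called, given several exons, at least 5 scaled CPM on average in the higher line, no overlap of libraries and a call by edgeR, the largest single-exon gene each way, and up to 3 called members of a list each way with the markers that define it. The comparison, the lists and the rule were chosen with earlier results of these data known. Same-numbered mESC libraries deviated together, with correlations between lines of 0.25 to 0.547, so the numbers were taken to pair them. In NPC the correlations ran from -0.0495 to 0.467 (-0.0221 for Q111 with Q92), so the numbers were not taken to pair those libraries. The highest, 0.467, was for KO with WT, whose same-numbered NPC libraries did deviate together. The labels call the 2 samples of a line biological samples, without saying whether they were separate cultures. The values of 2 list members are not reported here.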

Additional observations from a re-analysis of the deposited data

Results flagged for a closer look

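The difference between Q111 and Q92 was not the same in NPC and mESC, by limma's test of the interaction, for 274 genes. Values here are the NPC difference minus the mESC difference on the scale log2(scaled CPM + 1), with limma's adjusted p. Among the genes with the largest rises in NPC, the value was 4.94 for Aldh1l1 (SE 0.66, adjusted p = 0.000621), 4.73 for Car2 (SE 0.62, adjusted p = 0.000546), 4.53 for Ctsc (SE 0.62, adjusted p = 0.000689) and 4.42 for Col5a2 (SE 0.41, adjusted p = 3.97e-05). It was 4.39 for Epb41l3 (SE 0.56, adjusted p = 0.000419), 4.32 for Pdgfra (SE 0.61, adjusted p = 0.000902), 3.90 for Kdm5d and 3.79 for Heph (SE 0.46, adjusted p = 0.000288). The glutamate receptor gene Gria4 had 4.08.

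Of the genes that fell in NPC, Cdk6 had -4.11 (SE 0.75, adjusted p = 0.00658), Slit1 -3.77 (SE 0.44, adjusted p = 0.00026) and Htr3a -3.57 (SE 0.77, adjusted p = 0.0211). The X-linked genes Xlr3c and Xlr4b were higher in Q111 in mESC and near 0 in NPC, with -4.05 and -2.59 (SE 0.28, adjusted p = 0.000134) for Xlr4b.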

How the results depend on the processing

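The direction of all 128 called genes named by rule was kept under every alternative run, 75 of them kept their call under each, and 38 lost it only where 1 library was left out. Against 1877 called in NPC, DESeq2 called 3186, the fit on the 4 libraries 4184, the fit on the 8 knock-in libraries 4502 and edgeR on the 4 libraries, chosen after seeing the data, 3950; without 1 library 800 to 847 were called, where the lone sample was assumed to vary like the other groups. The replicate block, whose numbers do not pair the Q111 and Q92 NPC libraries, gave 1891 and lost 2 named calls, Ddit4 and Hk1. Other pseudocounts, filters, scalings, edgeR and, chosen after seeing the data, leaving out chromosomes 8 and 11 stayed within 1.5 times; quantile normalization split the calls 937 higher and 908 lower, and without those chromosomes 706 were higher and 774 lower. Against 11 called in mESC, the counts were 24 with no filter, 7 with a mean of at least 5, 210 with DESeq2, 158 with the replicate block, 3 on the 4 libraries, 5 on the 8 knock-in libraries, 0 with edgeR on the 4 libraries (544 at an unadjusted p below 0.05) and 0 to 8 without 1 library. Against 274 for the cell-type difference, they were 513 with no filter, 102 with a mean of at least 5, 647 with DESeq2, 818 with the replicate block, 527 on the 16 knock-in libraries and 137 to 209 without 1 library. The cause of these shifts was not tested. The 2 libraries per line and 1 line per genotype set the limit; depth does not bound the genes named, except those near 0 reads.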

Other observations

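In mESC, stretches of several chromosomes besides 11 were shifted between Q111 and Q92. On chromosome 6, among genes with a mean of at least 5 scaled CPM, the medians of the 3 windows of 20 Mb from base 100000001 on were -0.458, -0.467 and -0.352, while the windows before it lay between -0.0821 and 0.0288. In NPC the same windows gave -0.00336, -0.0438 and -0.106. Medians of a similar size were found in mESC on chromosome 17 from base 60000001 (0.364) and from base 80000001 (0.577), chromosome 9 from base 80000001 (-0.489) and on the X chromosome from base 120000001 (0.303, 33 genes).

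Sox21 was on in 1 replicate and off in the other in both lines. It is a factor of neural progenitors and had 0 and 54.1 scaled CPM in Q111 and 40.9 and 0 in Q92. Fzd1, a Wnt receptor gene with 1 exon, had no read in Q111 and 48 and 47.1 in Q92. It was not called (limma adjusted p = 0.0697). Among the other lines it was listed at 0 in both WT libraries, at 133 and 0 in KO, 45.7 and 36.1 in Q20 and 151 and 153 in Q50. Over 4-fold replicate differences in at least 1 of the 6 lines were seen for 5.98% of tested genes and for 1.33% of those called.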
